A study of Eucalyptus globulus and Eucalyptus grandis with 36 samples.

Results

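Warm growth was compared with growth at the control temperature in stems of Eucalyptus grandis, a eucalypt planted for wood pulp. The comparison covers the 547 genes of the E. grandis temperature table, out of 11827 genes that appear in any table of the series, and each gene is described by its difference at 30 °C minus 20 °C. A gene is called higher or lower at 30 °C where its 2 group values lay 1 or more apart on the log2 scale, a 2-fold difference. By this rule 159 of the 547 genes (29.1%) changed, of which 101 (18.5%) were higher and 58 (10.6%) were lower.

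The warm-grown plants were E. grandis at 30 °C in ambient CO2 and their controls were E. grandis at 20 °C in ambient CO2, with 3 samples per group out of 36 in the series. The labels name no transgene or other agent. The labels describe them as seedlings raised from clonal seed, of 6 months and roughly 25 cm height, with 5 to 6 expanded leaves. They stood in growth chambers for 35 days, under 280 µmol photons per square metre per second in a photoperiod of 10 h. The sample titles give 30 and 20 °C, whereas the protocols give chambers at 33 to 35 °C and 22 to 24 °C, and ambient CO2 is put at 390 ppm by the protocols but at 400 ppm by the design text. In the design text, 35 days is the plants' age. Chamber and temperature cannot be told apart, since each temperature was set in a growth chamber. Whether the 3 samples in each group are separate plants is not stated.

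RNA was sequenced from whole stems, and the values are those of the authors, 1 normalised log2 value per gene and group. No value per sample was given, so no error, no n and no test per gene can be set beside a value, and depth is unknown. The authors had selected the genes by one-way ANOVA of 10, 20 and 30 °C at a corrected p of 0.05, together with a 2-fold difference in at least 1 pair of temperatures. A gene may therefore stand in the table because of another pair, and 30 against 20 °C was the widest of the 3 pairs for 40 of the 159 changed genes. No scaling of levels by gene length is described, so each gene is compared with itself only.

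Plants under lasting warmth are known to adjust chaperones, hormone synthesis and growth. Ethylene is made from its precursor ACC by ACC oxidase, the ethylene-forming enzyme. C-repeat-binding factors are AP2/ERF transcription factors that bind the C-repeat element of cold and drought genes, and in Arabidopsis several of them are induced by cold. Stems also make lignin from phenylpropanoids, which laccases and peroxidases couple in the cell wall.

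Higher at 30 °C were 9 of 21 ethylene and AP2/ERF genes, 3 of 5 cytokinin genes and 2 of 4 CCCH zinc finger genes. Also higher were 1 of 4 galactinol synthases and 2 of 4 arabinogalactan and structural wall proteins. Lower at 30 °C were 3 of 4 NAC factors, 3 of 4 numbered MYB factors and 1 of 3 laccases. Both chlorophyll A-B binding family genes and 8 of 37 transporters were also lower. Median differences were 1.41 (2.66-fold) for the 92 higher genes and -1.59 (3.02-fold lower) for the 57 lower genes that had neither group at 0. Over the whole table the median difference was 0.28, and centring on it gave 66 higher and 86 lower genes. The share of changed genes that were higher was 63.5% as deposited and 43.4% after centring, so the balance of higher to lower genes depends on the scaling. No changed gene turned its direction when centred, because each differed by at least 1 and the shift was 0.28, but genes entered or left the lists, and centred list counts are given where they differ. Medians of lists leave out genes with a group at 0. Counts of lists are to be read beside the whole table, with 29.1% changed, 18.5% higher and 10.6% lower.

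**Figure D1:**
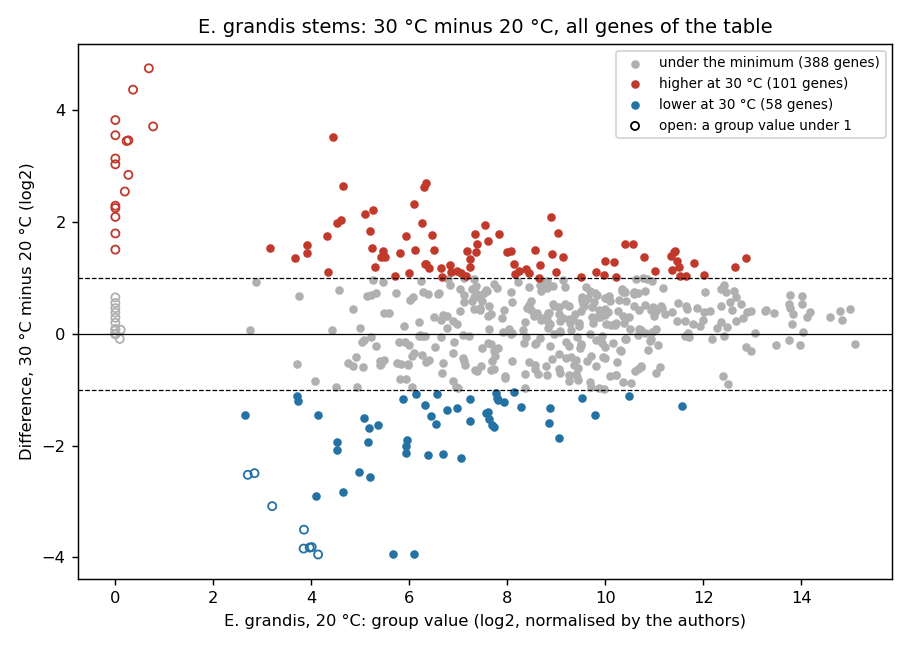
Difference at 30 °C minus 20 °C (log2, vertical axis) against the group value at 20 °C (log2, horizontal axis) for the 547 genes of the table, with dashed lines at 1 and -1. Red points are the 101 higher genes, blue points the 58 lower genes and grey points the 388 others, and open circles mark genes with a group value under 1, where many of the widest differences lie.

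Many of the widest differences belonged to genes close to the floor of the scale. A group value under 1 occurred in 24 of the 159 changed genes and in 22 of the 43 that differed by at least 4-fold, so the fold of such a gene rests on a group with little signal. Of the changed genes, 10 had a group listed at 0, and no fold is given for them. Just inside the minimum difference lay isopentenyltransferase 5 (Eucgr.H03602) at 1.00 and UDP-glucosyl transferase 73D1 (Eucgr.A01605) at 1.02 on the higher side, and a pectin lyase-like gene (Eucgr.J01160) at -1.03 and Eucgr.F01893 at -1.06 on the lower side. Just outside lay a thaumatin gene (Eucgr.I01898) at 0.997, an RNA-binding gene (Eucgr.D01310) at 0.995, a laccase 14 (Eucgr.F02649) at -0.975 and Eucgr.H00199 at -0.978.

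Ethylene-forming enzyme was represented by 3 genes, all higher at 30 °C. Eucgr.K00742 had a group value of 4.73 at 30 °C and 0.36 at 20 °C, a difference of 4.37 that starts close to the floor. Eucgr.K00747 reached 9.56 at 30 °C, against 8.08 at 20 °C, or 2.79-fold. The same direction was seen for Eucgr.K00749, at 7.97 at 30 °C against 6.86 at 20 °C (2.17-fold). These genes lie near each other, with deposited end positions 40.4 kb and 19.9 kb apart, and genes that share a description may share reads, so single values in such a family are uncertain.

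All 3 changed genes of the cytokinin list were higher, out of 5 in the table (60% changed, beside 29.1% over the table). The list median was 1.00 beside 0.28 over the table, and 1 of the 3 stayed past the minimum when centred. Cytokinin oxidase 5 (Eucgr.F01857), which degrades cytokinins, had 6.88 at 30 °C and 5.51 at 20 °C. Isopentenyltransferase 5 (Eucgr.H03602), an enzyme of cytokinin synthesis, had 9.64 at 30 °C against 8.64 at 20 °C. Cytokinin response factor 2 (Eucgr.E00834), an AP2/ERF factor of the cytokinin response, had 9.91 at 30 °C, against 8.68 at 20 °C. Genes for degrading, making and responding to the hormone were thus all among the higher ones.

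Of 21 members of the ethylene and AP2/ERF list, 9 were higher (42.9%) and none was lower, beside 18.5% higher and 10.6% lower over the whole table. The list median was 0.83, against 0.28 over the table, and 4 members were higher when centred. The 9 higher members were the 3 ethylene-forming enzymes, cytokinin response factor 2, 3 C-repeat-binding factors and 2 genes described as integrase-type DNA-binding, the annotation's name for AP2/ERF-domain proteins. These 2 were Eucgr.D01731, with 12.73 at 30 °C and 11.34 at 20 °C, and Eucgr.A02817, with 12.71 at 30 °C and 11.51 at 20 °C. Both differed by less than 3-fold.

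C-repeat-binding factors filled 10 places in the table, 8 described as factor 4 and 2 as factor 1. Eucgr.A02821 (factor 4) had 6.79 at 30 °C and 5.24 at 20 °C, a 2.91-fold difference. Eucgr.A02826 (factor 4) had 6.51 at 30 °C against 5.30 at 20 °C, and Eucgr.A02831 (factor 1) had 9.38 at 30 °C against 8.13 at 20 °C. The other 7 differed by less than the minimum, with differences over all 10 from -0.22 to 1.54 and a median of 0.71. Members of 1 family thus ran from nearly equal values, as in Eucgr.A02824 at 6.21 at 30 °C against 6.22 at 20 °C, to 2.91-fold. The 3 higher factors and the AP2/ERF gene Eucgr.A02817 stand in 1 stretch, with end positions of neighbouring changed genes 27.6 to 43.1 kb apart. By locus number, factors under the minimum also fall in this stretch, such as Eucgr.A02825 at a difference of 0.59.

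Other hormone genes went both ways. The jasmonate and lipoxygenase list had 1 higher and 2 lower of 11 (27.3% changed, near the 29.1% over the table). Jasmonate-ZIM-domain protein 10 (Eucgr.G01954), a repressor of jasmonate signalling, had 11.45 at 30 °C and 10.17 at 20 °C. Oxophytodienoate-reductase 3 (Eucgr.C03551), an enzyme of jasmonate synthesis, was low in both groups, with 1.20 at 30 °C and 2.64 at 20 °C. Methyl esterase 5 (Eucgr.I01201) was near the floor at 30 °C, with 0.19 at 30 °C against 4.01 at 20 °C. A GRAS factor (Eucgr.H01257), from the plant family of DELLA proteins, was the 1 higher gene of 4 in the gibberellin list, which had 0 higher and 1 lower when centred, at 11.04 at 30 °C against 9.98 at 20 °C. None of 3 auxin genes or 3 abscisic acid, dehydrin and late embryogenesis genes changed.

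**Figure D2:**
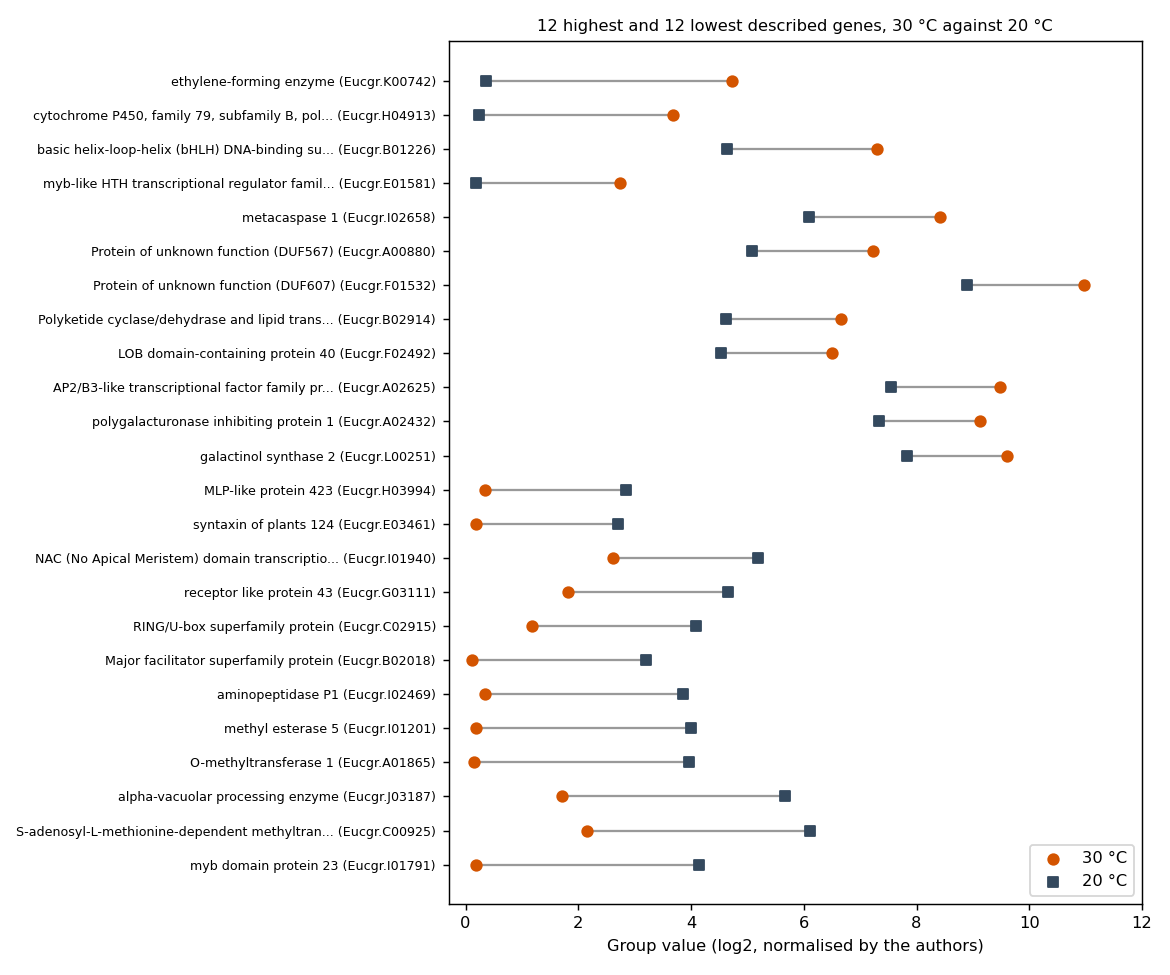
Group values (log2, horizontal axis) at 30 °C (orange circles) and 20 °C (dark squares) for the 12 highest and 12 lowest described genes with neither group at 0, joined by a line per gene. The ethylene-forming enzyme at the top stands at 4.73 at 30 °C and 0.36 at 20 °C, and myb domain protein 23 at the bottom stands at 0.19 at 30 °C against 4.14 at 20 °C.

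Of 4 NAC factors in the table, 3 changed and all 3 were lower at 30 °C, beside 10.6% lower over the whole table. Their median difference was -1.44, and the count was the same when centred. Whether transcription factor families differ from each other was not tested. The widest difference was that of a NAC gene without a number (Eucgr.I01940), with 2.62 at 30 °C and 5.19 at 20 °C, or 5.94-fold lower. NAC domain containing protein 58 (Eucgr.B00724) had 6.07 at 30 °C against 7.74 at 20 °C (3.18-fold lower). A gene described as NAC-like, activated by AP3/PI (Eucgr.B03208), a description that in Arabidopsis belongs to a regulator of leaf senescence, had 6.71 at 30 °C and 7.93 at 20 °C.

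The MYB list held 2 higher and 3 lower of 9 members (55.6% changed, beside 29.1% over the table). These counts were the same when centred, and all 3 lower genes were numbered myb domain proteins. Myb domain protein 12 (Eucgr.H01058), which in Arabidopsis switches on flavonol synthesis, had 2.45 at 30 °C and 4.53 at 20 °C (4.23-fold lower). Myb domain protein 40 (Eucgr.J02279) was 5.54-fold lower, at 2.50 at 30 °C against 4.97 at 20 °C. Myb domain protein 23 (Eucgr.I01791), a trichome regulator in Arabidopsis, had 0.19 at 30 °C, near the floor, and 4.14 at 20 °C. The 2 higher genes were described as myb-like, and of these Eucgr.B02575 had 10.50 at 30 °C against 9.13 at 20 °C and Eucgr.E01581 had 2.74 at 30 °C against 0.19 at 20 °C, where its value at 20 °C is close to the floor.

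Basic helix-loop-helix factors had 2 higher and 1 lower of 5 (60% changed, beside 29.1% over the table). Eucgr.B01226 led with 7.29 at 30 °C and 4.65 at 20 °C (6.26-fold), followed by Eucgr.D00581 at 6.79 at 30 °C against 5.42 at 20 °C, while Eucgr.F01868 was lower at 7.54 at 30 °C against 8.87 at 20 °C. The zinc finger list had 4 higher and 0 lower of 14, or 2 higher when centred, and its share of changed genes, 28.6%, was near the 29.1% over the table. Its 2 leading genes were both of the CCCH type (C-x8-C-x5-C-x3-H), which in plants includes RNA-binding proteins. Eucgr.C03215 had 10.07 at 30 °C and 8.57 at 20 °C, and Eucgr.C02990 had 12.88 at 30 °C and 11.41 at 20 °C. LOB domain-containing protein 40 (Eucgr.F02492), at 6.50 at 30 °C against 4.53 at 20 °C, and an AP2/B3-like factor (Eucgr.A02625), at 9.49 at 30 °C against 7.54 at 20 °C, were also among the 12 highest described genes.

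In the lignin pathway, named genes went both ways and most members stayed under the minimum. The monolignol and phenylpropanoid list had 1 higher and 2 lower of 12, or 25.0% changed beside 29.1% over the table, and 0 higher and 2 lower when centred. UDP-glucosyl transferase 72E1 (Eucgr.L01657), which in Arabidopsis attaches glucose to lignin aldehydes, had 10.93 at 30 °C and 9.82 at 20 °C. Sinapoylglucose 1 (Eucgr.I01042), named for an Arabidopsis enzyme of sinapate ester synthesis, had 3.92 at 30 °C and 5.92 at 20 °C (4.01-fold lower). O-methyltransferase 1 (Eucgr.A01865), named for an Arabidopsis enzyme that methylates lignin precursors and flavonols, was at 0.14 at 30 °C, near the floor, and 3.97 at 20 °C. Phenylalanine ammonia-lyase 2 (Eucgr.C03570), the entry enzyme, differed by 0.31 and cinnamate-4-hydroxylase (Eucgr.C00065), the next one, by -0.53, both under the minimum.

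Of 3 laccases, 1 was lower at 30 °C and 2 lay just under the minimum on the same side. Laccase 14 (Eucgr.F02646) had 6.16 at 30 °C and 7.57 at 20 °C, or 2.65-fold lower. The second laccase 14 (Eucgr.F02649) had 7.39 at 30 °C against 8.37 at 20 °C, and laccase 17 (Eucgr.L00355), a lignin laccase in Arabidopsis, had 5.11 at 30 °C against 6.06 at 20 °C. With 2 peroxidases under the minimum, the laccase and peroxidase list had 0 higher and 1 lower of 5, or 3 lower when centred, which brings in the other 2 laccases. The flavonoid and anthocyanin list had 1 lower of 3, the regulator myb domain protein 12, or 2 lower when centred. Dihydroflavonol 4-reductase (Eucgr.D02358), an enzyme of anthocyanin synthesis, lay under the minimum at -0.95 and passed it when centred.

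Some wall proteins and pectin inhibitors were higher, whereas the cellulose and hemicellulose list and the xyloglucan, expansin and endoglucanase list showed no change of 2-fold. Arabinogalactan protein 16 (Eucgr.C03852), a glycoprotein of the cell surface, had 6.08 at 30 °C and 4.33 at 20 °C (3.38-fold). A carbohydrate-binding X8 domain gene (Eucgr.H04823) was listed at 3.04 at 30 °C and 0 at 20 °C. These were the 2 changed genes of 4 in the arabinogalactan and structural protein list. Polygalacturonase inhibiting protein 1 (Eucgr.A02432), a wall protein that blocks fungal pectin-degrading enzymes, had 9.12 at 30 °C against 7.34 at 20 °C, and an invertase and pectin methylesterase inhibitor gene (Eucgr.A02883) had 7.58 at 30 °C against 6.33 at 20 °C. The pectin list in all had 2 higher and 1 lower of 6, or 1 of each when centred. None of 3 cellulose and hemicellulose genes and none of 5 xyloglucan, expansin and endoglucanase genes in the table reached the minimum. The nearest, UDP-D-glucuronate 4-epimerase 1 (Eucgr.C00223), lay just under it at 0.987. Keyword matching alone placed this sugar nucleotide enzyme in the cellulose and hemicellulose list.

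Chaperone genes were few in the table and went both ways. The 2 small heat shock genes, both described as HSP20-like, split in direction. Eucgr.K03016 had 11.31 at 30 °C and 10.00 at 20 °C (2.48-fold higher). Eucgr.L02712 had 6.06 at 30 °C and 7.23 at 20 °C (2.26-fold lower). A DnaJ-domain co-chaperone (Eucgr.J03121) was lower, at 10.26 at 30 °C against 11.56 at 20 °C, and was the 1 changed gene of 3 large chaperones and DnaJ proteins. Heat shock transcription factor A2 (Eucgr.C03424), an activator of chaperone genes, differed by 0.43, under the minimum, and was the 1 heat shock factor in the table.

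Of 4 genes of light capture and photorespiration, 3 were lower, beside 10.6% lower over the whole table, and the list median was -1.29, against 0.28 over the table. Both chlorophyll A-B binding family genes, a family of proteins that bind light-harvesting pigments, were lower at 30 °C. Eucgr.B01008 had 6.07 at 30 °C and 7.69 at 20 °C (3.09-fold lower). Eucgr.B01896 had 4.96 at 30 °C against 6.43 at 20 °C (2.78-fold lower). The gene for 2-phosphoglycolate phosphatase 1 (Eucgr.B01439), the first enzyme of photorespiration, had 9.37 at 30 °C against 10.48 at 20 °C. The fourth, photosystem I subunit F (Eucgr.K00389), differed by 0.13. A DNA photolyase family gene (Eucgr.J03037) was lower at 5.40 at 30 °C against 6.76 at 20 °C, the 1 changed of 4 clock and light genes.

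Central carbon genes changed one by one. Galactinol synthase 2 (Eucgr.L00251), which starts the synthesis of raffinose sugars, had 9.61 at 30 °C and 7.82 at 20 °C (3.44-fold). The other 3 galactinol synthases differed by 0.23 to 0.97, under the minimum. Phosphofructokinase 3 (Eucgr.C00952), an enzyme of glycolysis, was higher at 9.24 at 30 °C against 8.16 at 20 °C. In the opposite direction, 6-phosphogluconolactonase 1 (Eucgr.B03143), of the oxidative pentose phosphate pathway, was lower at 8.32 at 30 °C against 9.78 at 20 °C. These made 2 higher and 1 lower of 10 in the sugar, starch and raffinose list, or 1 higher and 2 lower when centred. Outside the list, formate dehydrogenase (Eucgr.J02209), which oxidises formate, was higher at 7.58 at 30 °C against 6.34 at 20 °C.

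Transporters had 3 higher and 8 lower of 37 (9 lower when centred) and a list median of -0.04. Their share of changed genes, 29.7%, was near the 29.1% of the whole table. Both MATE efflux genes were lower, Eucgr.F01527 at 4.21 at 30 °C against 6.38 at 20 °C and Eucgr.B02875 at 6.20 at 30 °C against 7.60 at 20 °C. An ABC-2 type transporter (Eucgr.F03258) had 4.54 at 30 °C and 6.69 at 20 °C (4.43-fold lower). Major facilitator genes had 1 higher and 2 lower of 11, with Eucgr.H01262 at 8.66 at 30 °C against 7.17 at 20 °C and Eucgr.B02590 at 5.68 at 30 °C against 7.23 at 20 °C, while Eucgr.B02018 was near the floor at 0.12 at 30 °C against 3.20 at 20 °C. A transmembrane amino acid transporter (Eucgr.H00460) was higher at 10.35 at 30 °C against 8.91 at 20 °C. A vacuolar iron transporter gene (Eucgr.C02475) was lower at 4.72 at 30 °C against 5.87 at 20 °C, as was ferric reduction oxidase 6 (Eucgr.I01141), a reductase that makes iron available for uptake, at 6.63 at 30 °C against 7.81 at 20 °C.

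**Figure D3:**
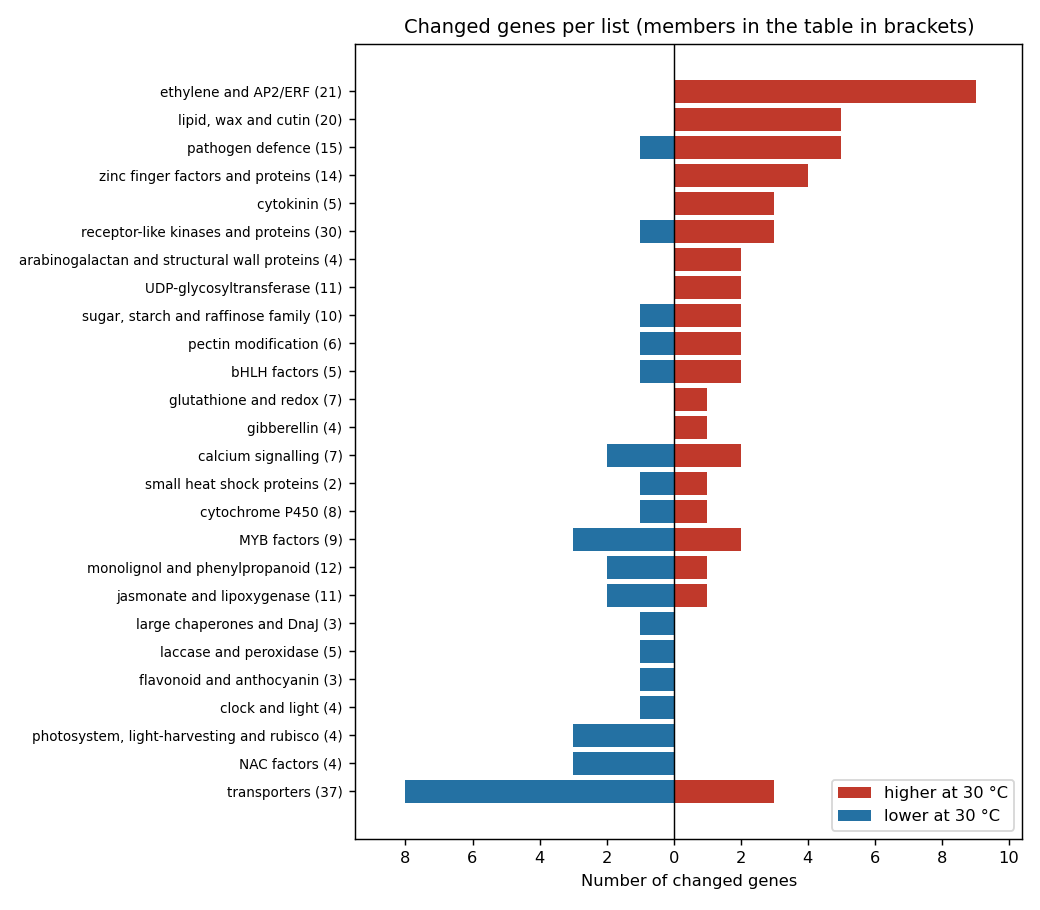
Number of changed genes (horizontal axis) in each gene list with at least 1 changed member, lower at 30 °C to the left in blue and higher to the right in red, with the number of members in the table in brackets. The ethylene and AP2/ERF list has 9 higher and 0 lower, and the transporter list has 3 higher and 8 lower.

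Defence and surface receptor genes were mixed. The pathogen defence list had 5 higher and 1 lower of 15 (40% changed, beside 29.1% over the table), or 2 higher and 1 lower when centred. MLP-like protein 328 (Eucgr.B02916), of the major latex protein family, had 8.99 at 30 °C against 7.37 at 20 °C, and a polyketide cyclase and lipid transport superfamily gene whose end lies 24.5 kb away (Eucgr.B02914) had 6.65 at 30 °C against 4.61 at 20 °C. The 2 genes described as MLP-like protein 423 went opposite ways, Eucgr.H03982 at 5.44 at 30 °C against 4.33 at 20 °C and Eucgr.H03994 at 0.35 at 30 °C against 2.84 at 20 °C, where its value at 30 °C is near the floor. Germin 3 (Eucgr.F04417) had 8.60 at 30 °C against 7.25 at 20 °C. Receptor-like kinases and proteins were the list with the lowest share of changed genes among those with 20 or more members, at 3 higher and 1 lower of 30 (13.3%, beside 29.1% over the table), a balance that turned to 1 higher and 3 lower when centred. Receptor like protein 6 (Eucgr.K00645) had 8.05 at 30 °C against 6.82 at 20 °C, and receptor like protein 43 (Eucgr.G03111) had 1.82 at 30 °C against 4.65 at 20 °C.

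Among genes of protein turnover and cell death, metacaspase 1 (Eucgr.I02658), a cysteine protease that promotes cell death in Arabidopsis, had 8.42 at 30 °C and 6.10 at 20 °C (5.01-fold). Alpha-vacuolar processing enzyme (Eucgr.J03187), a vacuolar cysteine protease, had 1.72 at 30 °C and 5.66 at 20 °C (15.3-fold lower). Both genes described as regulatory particle non-ATPase subunit 5B, a proteasome subunit, were higher, Eucgr.C01526 at 8.81 at 30 °C against 7.35 at 20 °C and Eucgr.C01310 at 7.25 at 30 °C against 5.80 at 20 °C. A RING/U-box gene (Eucgr.C02915), of a family of ubiquitin ligases, was lower at 1.19 at 30 °C against 4.09 at 20 °C, as was aminopeptidase P1 (Eucgr.I02469) at 0.35 at 30 °C against 3.85 at 20 °C, where its value at 30 °C is near the floor.

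Smaller groups gave single genes. Cytochrome P450 genes had 1 higher and 1 lower of 8, or 1 higher and 3 lower when centred. Family 79 subfamily B polypeptide 3 (Eucgr.H04913), which in Arabidopsis starts indole glucosinolate synthesis from tryptophan, was higher at 3.68 at 30 °C against 0.23 at 20 °C, with the value at 20 °C near the floor. Eucgr.L02324 was lower at 5.05 at 30 °C against 6.33 at 20 °C. The UDP-glycosyltransferase list had 2 higher and 0 lower of 11, which turned to 0 higher and 1 lower when centred, and the glutathione and redox list had 1 higher and 0 lower of 7 (1 of each when centred), the higher one a thioredoxin superfamily gene (Eucgr.K03442) at 6.95 at 30 °C against 5.47 at 20 °C. Calcium signalling had 2 higher and 2 lower of 7 (1 higher and 2 lower when centred), with an EF-hand gene (Eucgr.A01457) at 12.18 at 30 °C against 10.57 at 20 °C and glutamate receptor 2.7 (Eucgr.C02003) at 2.59 at 30 °C against 3.70 at 20 °C. The lipid, wax and cutin list had 5 higher and 0 lower of 20 (25% changed, beside 29.1% over the table), or 3 higher and 1 lower when centred. Among them a lipid-transfer protein superfamily gene (Eucgr.D02043) had 14.23 at 30 °C against 12.87 at 20 °C, and a calcium-dependent lipid-binding gene (Eucgr.A02756) had 13.09 at 30 °C against 11.81 at 20 °C. Ankyrin repeat family genes had 1 higher and 2 lower of 6, namely Eucgr.K00707 at 4.70 at 30 °C against 3.15 at 20 °C, Eucgr.E01532 at 4.93 at 30 °C against 6.55 at 20 °C and Eucgr.K00978 at 3.48 at 30 °C against 5.17 at 20 °C. No member changed among 2 terpene, 3 cell cycle and histone and 2 ribosomal protein genes, and no WRKY factor was in the table.

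Some pairs of genes with the same description moved alike. Both phosphate-responsive 1 genes were higher, Eucgr.F00358 at 12.92 at 30 °C against 11.43 at 20 °C and Eucgr.F00359 at 12.78 at 30 °C against 11.47 at 20 °C, with end positions 5.26 kb apart. Both genes described as acyl-activating enzyme 18 were lower, Eucgr.J01807 at 6.10 at 30 °C against 7.63 at 20 °C and Eucgr.J01811 at 2.54 at 30 °C against 3.74 at 20 °C, 31.0 kb apart. Of the changed genes, 60 share a description with another gene of the table, so reads of near-identical copies may have been split among them. Each changed gene was paired only with the next changed gene along the chromosome. With ends within 100 kb, 13 such neighbouring pairs were found, of which 10 had the same direction. The pairs hold 23 genes, because some genes stand in more than 1 pair, so they are not separate cases. How many pairs would share a direction from the 101 higher and 58 lower genes alone was not tested.

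A methyltransferase of unnamed substrate (Eucgr.C00925) was 15.4-fold lower, at 2.16 at 30 °C and 6.10 at 20 °C. Syntaxin of plants 124 (Eucgr.E03461), a membrane fusion protein, was near the floor at 0.18 at 30 °C against 2.70 at 20 °C. Genes of unknown function included Eucgr.F01532, 10.97 at 30 °C and 8.89 at 20 °C, and Eucgr.A00880, 7.23 at 30 °C against 5.09 at 20 °C. Of the genes with a group listed at 0, a sodium and calcium exchanger gene (Eucgr.E02663) stood at 0 at 30 °C and 3.84 at 20 °C. A GDSL-like lipase (Eucgr.J02470) had 3.83 at 30 °C and was listed at 0 at 20 °C, an NmrA-like regulator (Eucgr.E01314) had 3.56 at 30 °C against 0 at 20 °C, and Eucgr.H03693, which has no description, had 3.14 at 30 °C against 0 at 20 °C.

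Stem tissue markers were sparse, because the table holds selected genes only, so the tissue label could not be checked against them. For the green cortex 3 markers were present, of which the 2 chlorophyll A-B binding genes were lower and photosystem I subunit F differed by 0.13. The 1 xylem marker, laccase 17, differed by -0.95, and the 1 phloem marker, phloem protein 2-A1 (Eucgr.J02719), by 0.76. No marker of cambium or of epidermis and cork was in the table. In whole stems, fewer cells of a type and less RNA per cell cannot be told apart, and the part of tissue makeup in these results was not tested.

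The same table holds E. grandis at 10 °C, which places each changed gene on a scale of 3 temperatures. The comparison of 10 with 20 °C shares the control samples, so its values are set side by side for named genes only. Ethylene-forming enzyme Eucgr.K00742 had 6.49, 0.36 and 4.73 at 10, 20 and 30 °C, lowest at the control temperature. Arabinogalactan protein 16 had 8.04, 4.33 and 6.08, and germin 3 had 10.37, 7.25 and 8.60, also lowest at 20 °C.

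Other genes ran in 1 direction over the 3 temperatures. The C-repeat-binding factor Eucgr.A02821 had 1.06, 5.24 and 6.79 at 10, 20 and 30 °C, and MLP-like protein 328 had 2.38, 7.37 and 8.99, both lowest in the cold. The CCCH gene Eucgr.C02990 had 7.67, 11.41 and 12.88. Downward runs were those of the chlorophyll A-B binding gene Eucgr.B01008, with 12.45, 7.69 and 6.07, laccase 14 Eucgr.F02646, with 9.45, 7.57 and 6.16, and myb domain protein 12, with 6.79, 4.53 and 2.45. Another shape, highest at 20 °C, was that of alpha-vacuolar processing enzyme, with 0.23, 5.66 and 1.72, and of O-methyltransferase 1, with 0.47, 3.97 and 0.14.

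**Figure D4:**
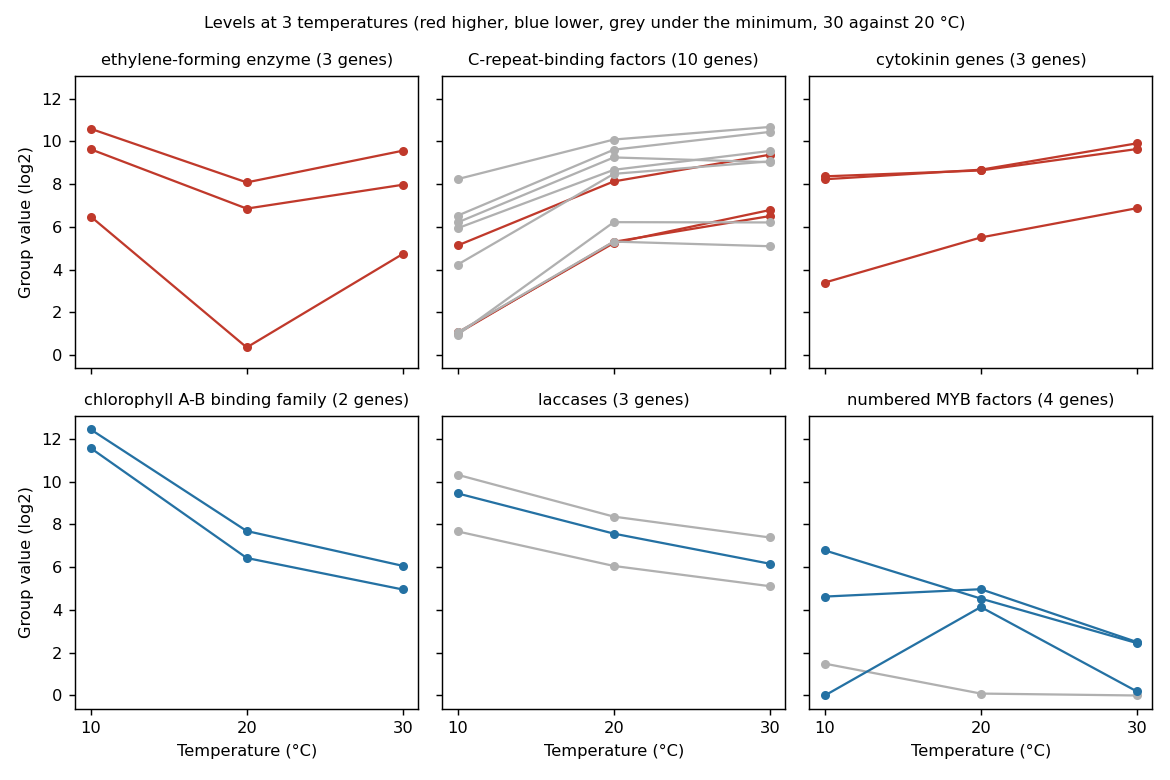
Group values (log2, vertical axis) at 10, 20 and 30 °C (horizontal axis) for 6 gene groups in E. grandis, 1 line per gene, red where higher, blue where lower and grey where under the minimum at 30 against 20 °C. The 3 ethylene-forming enzymes are lowest at 20 °C, the 2 chlorophyll A-B binding genes and 3 laccases are highest at 10 °C, and all 10 C-repeat-binding factors are lowest at 10 °C.

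Elevated CO2 at 30 °C was set against the same 20 °C control in another table. It lists 36 of the 159 changed genes, 26 of the higher and 10 of the lower ones, beside 95 of all 547 genes. All 984 genes of that table differed from the control by at least 1 on the log2 scale. A listed gene therefore lay at least 2-fold above or below the control. For changed genes absent from it, no level at 30 °C with elevated CO2 was read. Since both comparisons share the control samples, levels are given side by side. The HSP20-like gene Eucgr.L02712 had 6.06 at 30 °C, 8.59 at 30 °C with elevated CO2 and 7.23 at 20 °C. UDP-glucosyl transferase 72E1 had 10.93 at 30 °C, 7.48 at 30 °C with elevated CO2 and 9.82 at 20 °C, and a major facilitator gene (Eucgr.B02590) had 5.68 at 30 °C, 9.23 at 30 °C with elevated CO2 and 7.23 at 20 °C. A second major facilitator gene (Eucgr.H01262) had 8.66 at 30 °C, 5.86 at 30 °C with elevated CO2 and 7.17 at 20 °C. Senescence-associated gene 12 (Eucgr.L00918), a cysteine protease, had 12.57 at 30 °C, 10.07 at 30 °C with elevated CO2 and 11.53 at 20 °C. In these genes, named after their values were seen, the 2 warm groups lay on opposite sides of the control. How often each case occurred is not given, because both comparisons use the same control samples. Examples in which both lay on the same side were the bHLH gene Eucgr.B01226 with 7.29 at 30 °C, 7.42 at 30 °C with elevated CO2 and 4.65 at 20 °C, MLP-like protein 328 with 8.99 at 30 °C, 9.76 at 30 °C with elevated CO2 and 7.37 at 20 °C, and NAC domain containing protein 58 with 6.07 at 30 °C, 6.16 at 30 °C with elevated CO2 and 7.74 at 20 °C.

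Stems of Eucalyptus globulus, the second species, were grown at the same temperatures and share no sample with these groups. Its table holds 7453 genes, of which 4428 (59.4%) changed at 30 against 20 °C by the same rule, 36.0% higher and 23.4% lower. Of the 159 changed E. grandis genes, 96 were in that table and 63 changed there too, which is 39.6% of the E. grandis list and 1.42% of the E. globulus list. The other 33 of the 96 lay under the minimum there. A further 63 of the 159 were absent from that table and could not be called, so the 39.6% has another base than the 59.4%. The count to set beside the 59.4% is the 63 changed of the 96 present. The direction was the same for 56 of the 63, with 40 higher and 16 lower in both species, and opposite for 7. Among E. globulus genes that changed, 60.5% were higher. Whether the species differ in response was not tested, since neither table gives a value per sample.

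Genes with the same direction included the ethylene-forming enzyme Eucgr.K00747, which in E. globulus had 9.04 at 30 °C and 6.19 at 20 °C. Galactinol synthase 2 (Eucgr.L00251) had 10.54 at 30 °C against 7.29 at 20 °C in that species, and jasmonate-ZIM-domain protein 10 had 10.77 at 30 °C against 7.32 at 20 °C. The AP2/ERF gene Eucgr.A02817 had 12.14 at 30 °C against 8.18 at 20 °C in E. globulus, and the C-repeat-binding factor Eucgr.A02826 had 8.36 at 30 °C against 3.85 at 20 °C. Each of these was higher at 30 °C in both species. In germin 3 the difference was 1.35 in E. grandis and 5.52 in E. globulus. Laccase 14 (Eucgr.F02646) was lower in both species, with 5.67 at 30 °C against 7.42 at 20 °C in E. globulus, and ferric reduction oxidase 6 had 2.72 at 30 °C against 6.86 at 20 °C. Over the 56 genes the median absolute difference was 1.48 in E. grandis and 1.92 in E. globulus, and 22 had the wider difference in E. grandis and 34 in E. globulus.

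The 7 genes with opposite directions were 4 higher and 3 lower in E. grandis. UDP-glucosyl transferase 72E1 (Eucgr.L01657) had 3.36 at 30 °C and 5.14 at 20 °C in E. globulus, so it was lower there and higher in E. grandis. The amino acid transporter Eucgr.H00460, with 9.66 at 30 °C against 11.52 at 20 °C in E. globulus, the gene of unknown function Eucgr.F01532, with 8.88 at 30 °C against 10.07 at 20 °C, and senescence-associated gene 12 (Eucgr.L00918), a cysteine protease, with 12.36 at 30 °C against 13.43 at 20 °C, showed the same contrast. Lower in E. grandis and higher in E. globulus were the AP3/PI-activated NAC-like gene Eucgr.B03208, with 9.04 at 30 °C against 7.96 at 20 °C in E. globulus, a cytochrome P450 gene (Eucgr.L02324), with 7.06 at 30 °C against 6.00 at 20 °C, and oxophytodienoate-reductase 3 (Eucgr.C03551), with 4.72 at 30 °C against 3.06 at 20 °C. These 7 were named after their values were seen. All 7 differed by less than 4-fold in at least 1 species.

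**Figure D5:**
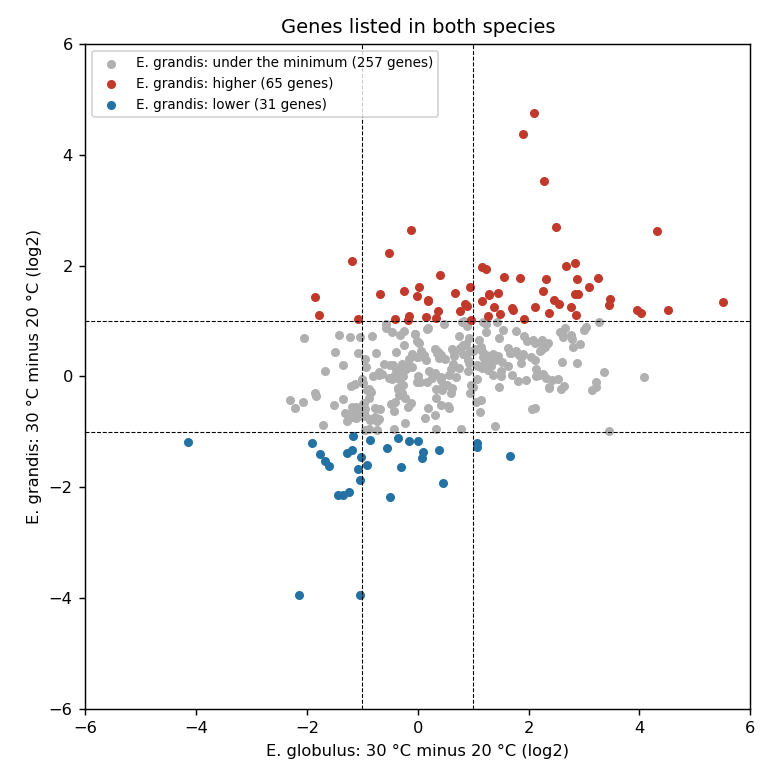
Difference at 30 °C minus 20 °C (log2) in E. grandis (vertical axis) against that in E. globulus (horizontal axis) for the 353 genes listed in both temperature tables, with dashed lines at 1 and -1. Red points are higher and blue points lower in E. grandis, and 56 of the 63 genes beyond the lines in both species lie in the 2 corners of equal direction.

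Across the 353 genes listed in both tables, which make up 64.5% of the E. grandis table and 4.74% of the E. globulus table, Pearson's r between the differences of the 2 species was 0.47 and Spearman's rho was 0.49. This is a description across genes, which are not independent replicates and were all selected by the authors in both species.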

How the data were processed

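RNA from whole stems was sequenced. The authors deposited, per the file headers, 1 normalised log2 value per gene and group with a log2 fold change for each pair of groups, for genes kept by a one-way ANOVA at a corrected p-value cut-off of 0.05 and a fold cut-off of 2. The signed fold scores that the authors deposited beside them were not used. The submitters' processing notes name Bowtie2 and DESeq with neither role nor version, and no source used here gives the genome build. From the 8 deposited files, 3 entered the analysis. Differences were computed as the value at 30 °C minus that at 20 °C, and the deposited log2 fold change equalled this difference for 547 of 547 genes within 0.0001. A gene changed at an absolute difference of at least 1. No count, SD or value per sample was given, so no test was run and no interval is printed. Of the genes, 468 have a description in the file, and gene lists were matched to it by keyword. Named genes were the 12 highest and 12 lowest described genes with no group at 0, the extreme changed members of each list and family, the 4 changed genes with the highest value opposite a 0, and the 2 genes nearest the minimum on each side and in each direction, with further list members added as examples. The members and lists were chosen with earlier results of these data known. Counting was tested on simulated data. Python 3.11.15, pandas 2.3.3 and scipy 1.17.1 were used.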

Additional observations from a re-analysis of the deposited data

How the results depend on the processing

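With 101 higher and 58 lower genes as the base, a 4-fold minimum gave 23 and 20, a 3-fold minimum 39 and 30, and no minimum 334 and 205. Counting only genes whose widest pair was 30 against 20 °C gave 24 and 16. Centring on the table median gave 66 higher genes, while the lower count of 86 stayed within 1.5 times. Leaving out genes at 0 (92 and 57) or with the higher value under 3 (95 and 55) moved neither count by 1.5 times, nor did leaving out genes under 1 (85 and 50), an alternative chosen after seeing the data. Lists with more higher than lower members numbered 13, or 5 at 4-fold and 7 when centred, and lists with more lower members numbered 10, or 16 when centred. Centring lists and single genes was also chosen after seeing the data. At a 4-fold minimum in both species, 6 genes had the same direction in E. globulus and 0 had the opposite one. For these movements the alternative's own construction sets which genes pass. Of the list counts and single-gene differences, 29 moved and 90 did not when centred. No called gene changed sign, which a shift of 0.28 could not bring about, but the balance of higher to lower members turned in 4 lists. When centred, receptor-like genes had 1 higher and 3 lower, UDP-glycosyltransferases 0 and 1, gibberellin genes 0 and 1, and sugar, starch and raffinose genes 1 and 2. No paired analysis was possible because the tables give 1 value per group and none per replicate. For the same reason no replicate could be left out, and the limit set by depth is unknown.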

Other observations

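Of the 159 changed genes, 32 have no description in the file, and 25 of these were higher and 7 lower at 30 °C. The widest difference of the whole comparison was that of such a gene. Eucgr.L00533 had a group value of 5.44 at 30 °C and 0.68 at 20 °C, close to the floor, and it was also higher in E. globulus, by 2.11 on the log2 scale. On the lower side, Eucgr.A01373 had 3.80 at 30 °C and 5.94 at 20 °C in E. grandis, and its difference in E. globulus was -1.45.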
